A study of Danio rerio with 4 samples.

Results

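Peroxins are the proteins that assemble peroxisomes, the organelles in which very long chain fatty acids, branched fatty acids and D-amino acids are oxidised and the first steps of ether lipid synthesis take place. Their work is best known from yeast and mammals. Some peroxins insert membrane proteins, others carry enzymes from the cytosol through a docking site into the matrix, and a ubiquitin ligase with an ATPase pulls the emptied carrier back out. Inherited loss of these steps in humans causes the Zellweger spectrum disorders, which affect brain, liver and kidney. Here the RNA of 9 peroxin genes (*pex2*, *pex3*, *pex5*, *pex6*, *pex7*, *pex10*, *pex13*, *pex14* and *pex16*) was described, out of 31388 genes measured. They were chosen by gene symbol when the differences between these libraries were already known, so their differences are given as a description, without a test.

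RNA was taken from whole zebrafish embryos at 2dpf (days post-fertilization), in 2 libraries of MZ*tulp3* embryos and 2 libraries of control embryos. MZ*tulp3* embryos are maternal-zygotic mutants of *tulp3*, an adapter for the transport of membrane proteins into cilia. They come from a CRISPR/Cas9 line, *tulp3* uf3/uf3, which the study lists on an AB/TL background with the li1Tg transgene, and embryos with severe ventral body curvature were taken. The control embryos are labelled wildtype, so genotype and the choice of curved embryos cannot be told apart. Whether the controls carried li1Tg, and how many embryos went into a library, is not given in the sources used here. The libraries are labelled biological replicates, and p-values rest on the spread between libraries of a group. The SE given here and the p-values by limma are moderated. Each gene's spread is drawn toward that of genes with like levels, so it is not that gene's own replicate spread alone.

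Reads on genes numbered 22589725 to 29735214 per library, of which 40.95% to 71.05% fell on the 13 mitochondrial genes. Values are normalized counts, that is, reads divided by 1 size factor per library. Reads on *tulp3* itself were 0 in both MZ*tulp3* libraries, against 0 and 36 in the control libraries, so its level was detectable in 1 of the 4. Muscle, neuron, epidermis and erythroid markers were read in every library, and 5 of 7 liver and yolk layer markers passed the filter on low values. The other two did not: *fabp10a* had 10.3 normalized counts in MZ*tulp3* replicate 1 and 0 elsewhere, and *ttr* had 0 throughout. The egg coat gene *zp2.1* had 404.8 normalized counts in MZ*tulp3* replicate 2 and 0 in the other libraries.

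Of the 9 genes, 3 were read in every library, 4 had 0 reads in at least 1 library, and 2 had none at all. Among the 3, *pex7* had only 1 read in control replicate 1. For *pex5*, *pex14* and *pex3* the higher MZ*tulp3* library was still below the lower control library, which was so for 23.3% of all genes tested. The opposite order was seen in 0 members and in 20% of all genes tested. Since the members were chosen on this contrast, nothing is read from these shares. In *pex7*, *pex13* and *pex16* the groups overlapped. The filter on low values (at least 10 normalized counts in at least 2 libraries) was passed by 6 members, and *pex2*, *pex6* and *pex10* did not pass it. Fold changes are on the log2(normalized count + 2) scale, MZ*tulp3* minus control. Adding 2 draws low values together, but averaging log2 values can widen a difference where a library is near 0. *pex3* was -3.04 on this scale against -2.67 by DESeq2, and *pex7* 1.35 against 0.65. The other members tested were smaller on this scale than by DESeq2, such as *pex16*, at -0.97 against -2.05.

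**Figure D1:**
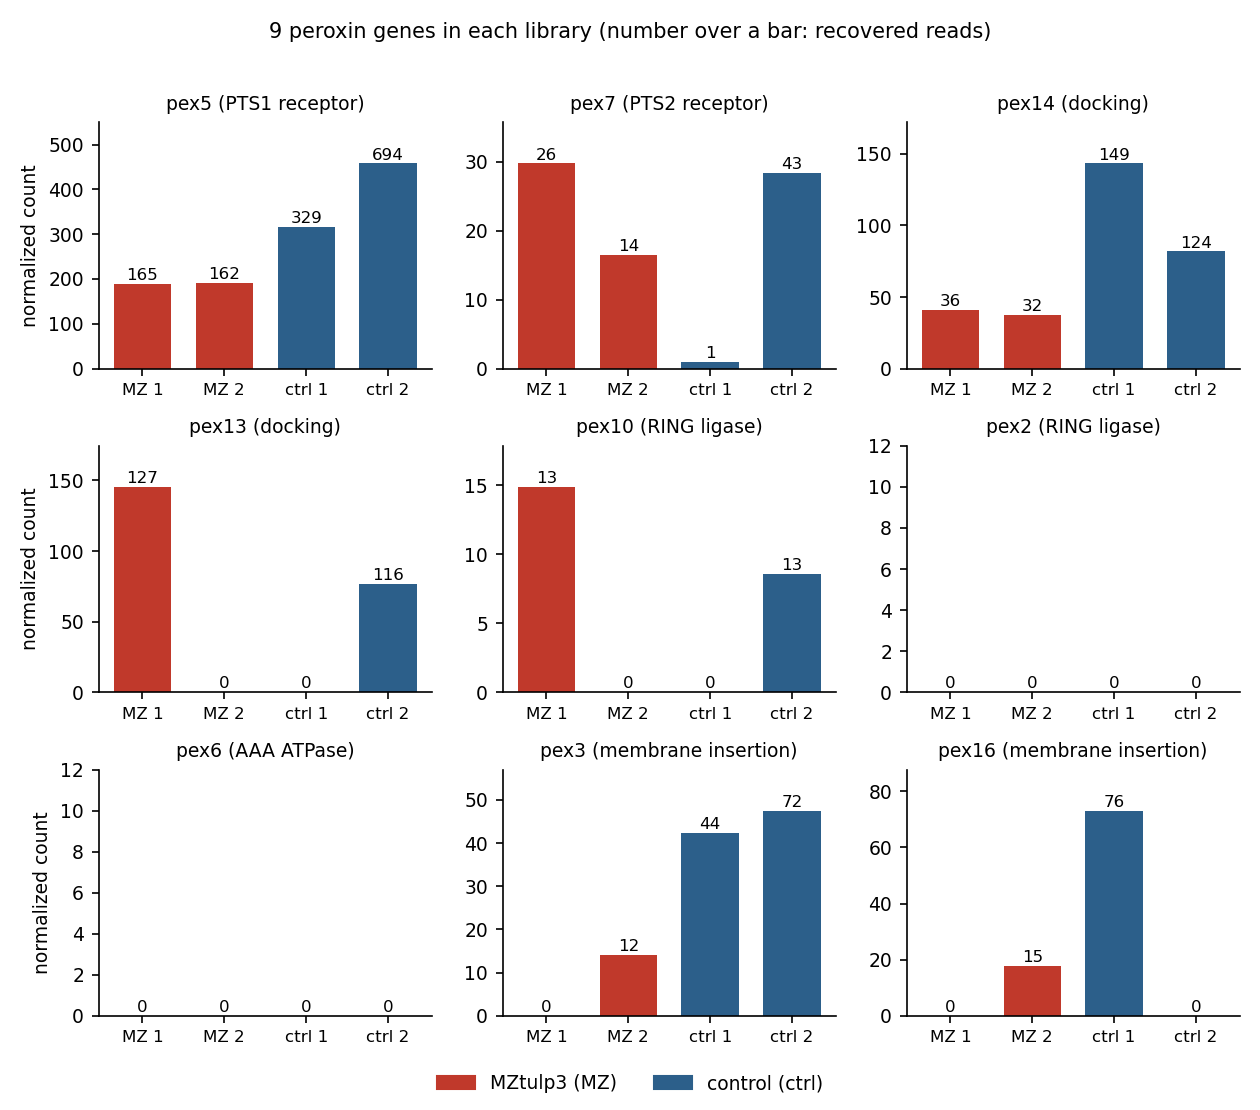
Normalized counts (y axis, linear, a separate scale in each panel) of the 9 peroxin genes in MZ*tulp3* replicates 1 and 2 (red) and control replicates 1 and 2 (blue), with the recovered reads over each bar. The red bars of *pex5*, *pex14* and *pex3* are below both blue bars, *pex13* and *pex10* are at 0 in 1 library of each group, and *pex2* and *pex6* are at 0 in all 4.

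The receptors carry enzymes into the matrix. *pex5* encodes the receptor for PTS1, the signal at the end of most matrix enzymes. It had 189 and 191 normalized counts in the MZ*tulp3* libraries, against 317 and 458 in the control libraries. The MZ*tulp3* libraries were almost equal and the groups did not overlap. In normalized counts the control libraries lay further apart than the higher MZ*tulp3* library and the lower control library did. The means were 190.1 ± 1.615 in MZ*tulp3* and 387.5 ± 100 in control embryos (SD, n = 2 each), a log2 difference of -0.996 (SE 0.51), and with 1 library left out it was between -1.26 and -0.73. With 1350 reads in all, it was the most deeply read of the 9 genes.

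*pex7* encodes the receptor for PTS2, a signal near the start of a small group of matrix enzymes. Its normalized counts were 29.8 and 16.5 in the MZ*tulp3* libraries, against 0.963 and 28.4 in the control libraries. The control libraries, with 1 and 43 reads, were far apart, and the groups overlapped. The log2 difference of 1.35 (SE 1.86) became -0.33 when control replicate 1 was left out and 3.03 when control replicate 2 was, so 1 control library set its direction.

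At the membrane, the loaded receptor meets the docking proteins. *pex14*, the main docking protein, had 41.2 and 37.8 normalized counts in the MZ*tulp3* libraries, against 143 and 81.9 in the control libraries. Both MZ*tulp3* libraries were low, and the gap to the lower control library was larger than the gap between them. In normalized counts it was smaller than the gap between the control libraries. The log2 difference was -1.41 (SE 1.14), with means of 39.5 ± 2.44 in MZ*tulp3* and 112.7 ± 43.5 in control embryos (SD, n = 2 each), and it was between -1.81 and -1.02 with 1 library left out. Its partner *pex13* had 145 and 0 normalized counts in the MZ*tulp3* libraries, against 0 and 76.6 in the control libraries. In reads these were 127 and 0 in MZ*tulp3*, against 0 and 116 in control. The spread inside each group was therefore larger than the difference between the means. The log2 difference of 0.45 (SE 2.71) changed direction with the library left out, to -2.65 when MZ*tulp3* replicate 1 was dropped and 3.56 when MZ*tulp3* replicate 2 was. Leaving out control replicate 1 gave -2.19 and leaving out control replicate 2 gave 3.10.

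Release of the receptor needs a ubiquitin ligase of RING finger peroxins, among them *pex2* and *pex10*, and an ATPase that contains *pex6*. *pex10* was read in the same libraries as *pex13*. It had 14.9 and 0 normalized counts in the MZ*tulp3* libraries, against 0 and 8.58 in the control libraries, or 13 reads wherever it was seen. *pex2* and *pex6* had 0 reads in every library. A count of 0 allows a level of 3 reads, or 1.98 to 3.54 normalized counts depending on the library, so they were not detectable at this depth. This limit covers counting error only.

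Membrane proteins arrive by another route. *pex3* encodes the membrane anchor on which peroxisomal membrane proteins are inserted. It had 0 and 14.2 normalized counts in the MZ*tulp3* libraries, against 42.4 and 47.5 in the control libraries. The control libraries lay close together, and 1 MZ*tulp3* library had no read. The log2 difference was -3.04 (SE 1.81), but leaving out MZ*tulp3* replicate 1 gave -1.54 and leaving out MZ*tulp3* replicate 2 gave -4.55. *pex16*, which brings *pex3* protein to the membrane in mammals, had 0 and 17.7 normalized counts in the MZ*tulp3* libraries, against 73.2 and 0 in the control libraries. Each group held 1 library at 0, and these were not the libraries that missed *pex13*. Its log2 difference of -0.97 (SE 2.25) turned to 0.68 when MZ*tulp3* replicate 1 was left out and to 1.65 when control replicate 1 was. Leaving out MZ*tulp3* replicate 2 gave -2.62, and leaving out control replicate 2 gave -3.58.

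Over the 6 members that passed the filter, 2 log2 differences were above 0 and 4 below, with a median of -0.98, beside a median of -0.09 over the 14674 genes tested. Summed over the 9 genes, normalized counts were 420.2 and 277.4 in the MZ*tulp3* libraries, against 576.6 and 701 in the control libraries. The sums did not overlap, but since the members were chosen on this contrast nothing is read from this. *pex5* alone made up 189 and 191 of the MZ*tulp3* sums and 317 and 458 of the control sums. The differences of *pex5*, *pex14* and *pex3* stayed below 0 under each scaling. With scaling to reads outside mitochondrial genes, which took 71.05% of reads in MZ*tulp3* replicate 2 and 40.95% in control replicate 2, they were -1.21 for *pex5*, -1.63 for *pex14* and -3.17 for *pex3*. The value of *pex3* depended on the pseudocount, at -4.07 with 0.5 and -1.82 with 10. By limma's moderated test 0% of all genes were past an adjusted p of 0.05. That is 0 genes, with 1873 at an unadjusted p under 0.05, and edgeR's quasi-likelihood test on recovered reads also called 0. DESeq2 called 355 of 13633 genes (2.6%).

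Libraries at 0 were common at these levels in all genes. Where a gene's mean over the 4 libraries was 20 to 50 normalized counts, 75.3% of genes had at least 1 library without a read, and at 50 to 100 it was 32.1%. Among the 15 genes with peroxin symbols described here these counts were 3 of 4 and 1 of 2. *pex13*, with a mean of 55.5, was missed in 2 libraries, while *pex7*, with a mean of 18.9, was read in all 4. In control replicate 1, however, *pex7* had only 1 read. What sets such zeros was not tested. In whole embryos fewer cells of a type and less RNA per cell cannot be told apart, which holds for each value given here.

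**Figure D2:**
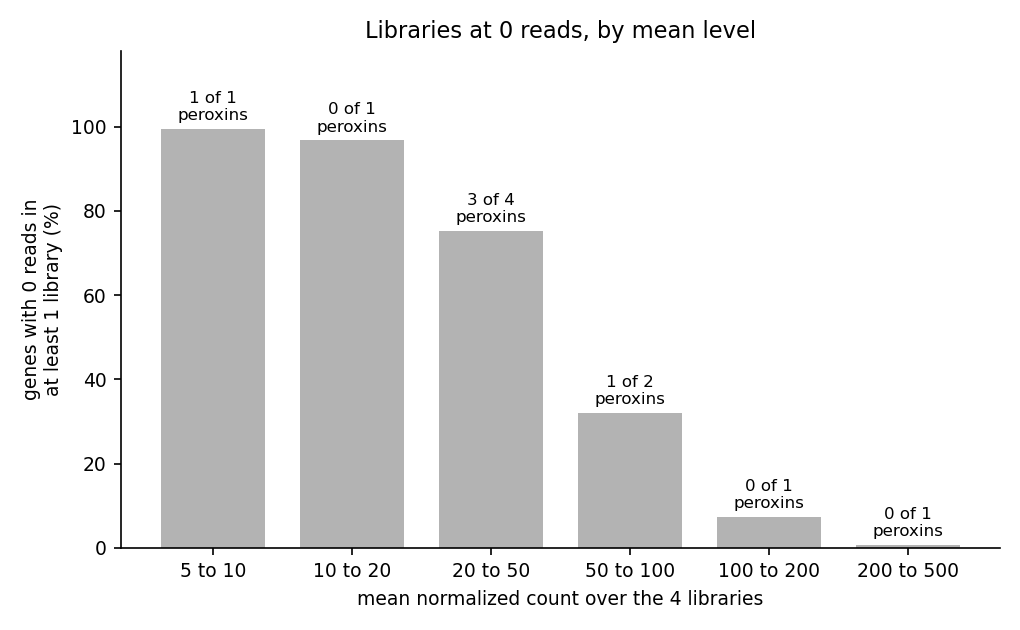
Share of genes (y axis, %) with 0 reads in at least 1 of the 4 libraries, in bins of the mean normalized count (x axis), with the number of described peroxins in each bin that had such a library. The share is 75.3% for means of 20 to 50 and 0.724% for means of 200 to 500, where *pex5* lies and has no library at 0.

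Beside the 9 genes, 6 more genes with peroxin symbols were described, with their values already seen, and 3 of them passed the filter. Of these 3, 0 were past the adjusted threshold by limma, edgeR or DESeq2, and 0 had an unadjusted p under 0.05 by limma, beside 7.94% of all genes with lower and 4.82% with higher values in MZ*tulp3* embryos at that level.

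*pex26*, the membrane anchor of the ATPase, had 13.7 and 15.3 normalized counts in the MZ*tulp3* libraries, against 44.3 and 38.95 in the control libraries. The groups did not overlap and the replicates were close, with a log2 difference of -1.40 (SE 1.57, adjusted p = 0.756 by limma, with 0.57 to 0.963 across alternative tests, scalings and filters). *pex19*, the carrier of membrane proteins that binds *pex3* protein, had 172 and 222 normalized counts in the MZ*tulp3* libraries, against 141 and 177 in the control libraries. The groups overlapped, with a log2 difference of 0.30 (SE 0.64, adjusted p = 0.895 by limma).

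*pex11a* and *pex11g* belong to a family that elongates and divides peroxisomes. *pex11g* had 0 and 51.9 normalized counts in the MZ*tulp3* libraries, against 55.8 and 48.2 in the control libraries. The groups overlapped, and 1 MZ*tulp3* library had no read (log2 difference -2.38, adjusted p = 0.666 by limma). Leaving out MZ*tulp3* replicate 1 gave 0.001, the upper end of a range that began at -4.75. *pex11a* had 15 reads in MZ*tulp3* replicate 1 and 0 in the other libraries. *pex5la* and *pex5lb*, the *pex5*-like genes, are counted here by symbol and not for a known part in peroxisome assembly. Both had 0 reads in every library. Over the 15 genes, 9 passed the filter, and in 4 both MZ*tulp3* libraries were below both control libraries, in 5 the groups overlapped, and in 0 both were above, beside 23.3% lower and 20% higher of all genes. Since 6 of the 9 are members chosen on this contrast, nothing is read from these counts.

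**Figure D3:**
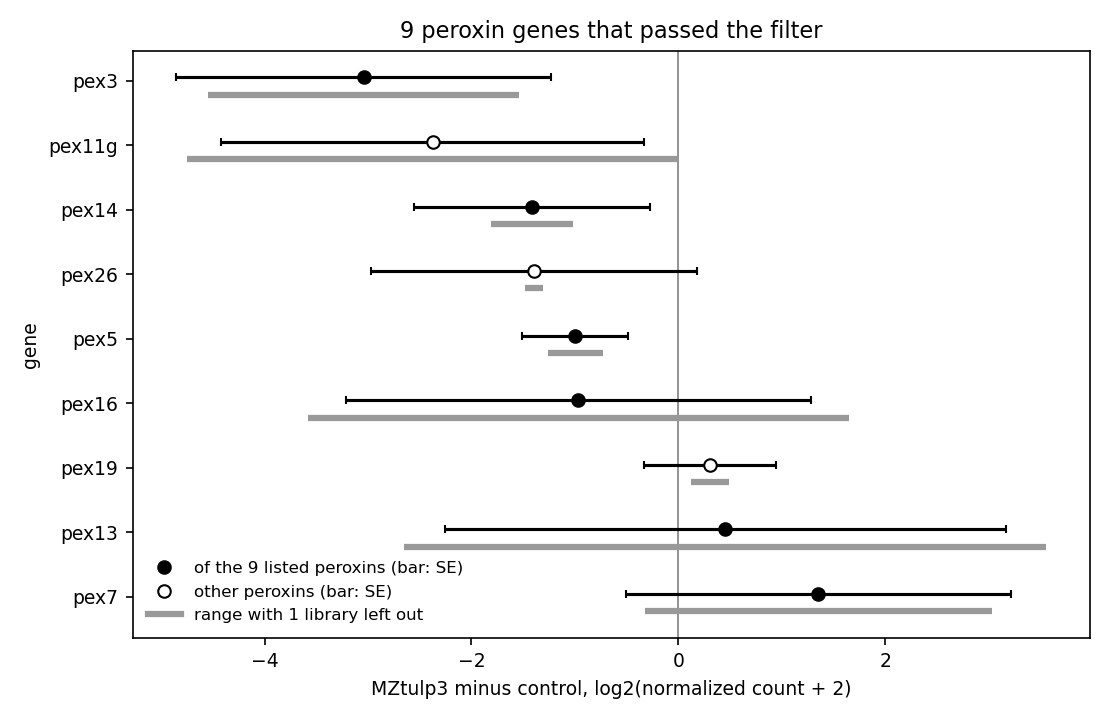
Log2 differences (x axis, MZ*tulp3* minus control on the log2(normalized count + 2) scale) of the 9 described peroxins that passed the filter, filled for the members and open for the others, with the SE and, in grey, the range with 1 library left out. The SE is limma's moderated SE, drawn toward genes with like levels. The members *pex3*, *pex14* and *pex5* lie between -3.04 and -0.996 with ranges below 0, and the ranges of *pex7*, *pex13* and *pex16* cross 0.

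The enzymes that the import machinery carries stood on both sides of 0. Of 45 matrix enzymes listed, 43 were in the table and 35 passed the filter, 20 with a log2 difference above 0 and 15 below. The median was 0.26, and it was 0.74 when MZ*tulp3* replicate 1 was left out and 0.04 when MZ*tulp3* replicate 2 was. By limma 0 were past the adjusted threshold, and edgeR and DESeq2 each called 0. At an unadjusted p under 0.05 by limma 1 of the 35 was higher and 1 lower, beside 4.82% and 7.94% of all genes. The groups did not overlap, with MZ*tulp3* higher, in 10 of the 35, and with MZ*tulp3* lower in 7, beside 20% and 23.3% of all genes tested. The 1 lower at that p was *pipox*, and *pipox* and *acot8* are among the 7. Both passed the filter through the control group alone, so nothing is read from their part in these counts. The enzyme list was chosen with earlier results of these data known, so its counts are a description. The difference between the peroxin and enzyme lists was not tested.

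The 3 enzymes known in mammals to use the *pex7* route, named with their values already seen, were not alike. *acaa1*, the thiolase of peroxisomal fatty acid oxidation, had 116 and 95.6 normalized counts in the MZ*tulp3* libraries, against 18.3 and 86.5 in the control libraries. For *phyh*, which starts the oxidation of phytanic acid, the values were 228 and 185 in the MZ*tulp3* libraries, against 188 and 255 in the control libraries. *agps*, an enzyme of ether lipid synthesis, had 28.6 and 0 in the MZ*tulp3* libraries, against 40.4 and 47.5 in the control libraries. *acaa1* was thus higher in both MZ*tulp3* libraries, *agps* lower in both, and *phyh* overlapped, with adjusted p from 0.622 to 0.975 by limma.

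Among the enzymes whose groups did not overlap, *pipox*, *ech1*, *ephx2* and *acot8* had the largest log2 differences. *pipox*, an oxidase of sarcosine and pipecolate, had 0 reads in both MZ*tulp3* libraries, against 29.8 and 26.4 normalized counts in the control libraries, which is at least 8.06-fold lower with 3 reads per library as the floor (adjusted p = 0.379 by limma, with 0.204 to 0.618 across these alternatives). *acot8*, an acyl-CoA thioesterase, was at 0 in both MZ*tulp3* libraries, against 10.6 and 13.9 in the control libraries, at least 3.51-fold lower (adjusted p = 0.453 by limma, with 0.317 to 0.668). *ech1*, an isomerase for unsaturated fatty acids, had 33.2 and 0 normalized counts in the MZ*tulp3* libraries, against 91.5 and 135 in the control libraries (adjusted p = 0.464 by limma, with 0.414 to 0.808). *ephx2*, an epoxide hydrolase, went the other way, with 60.7 and 126 in the MZ*tulp3* libraries, against 0 and 45.6 in the control libraries (adjusted p = 0.549 by limma, with 0.521 to 0.929). Each of these had at least 1 library at 0. *pipox* and *acot8* passed the filter only through the control libraries, so their groups could not overlap. Their fold bounds cover counting error only, and the difference may be smaller. At least 1 library at 0 was common at the means of *pipox* and *acot8*, in 96.8% of genes at 10 to 20 and 99.5% at 5 to 10. For means of 50 to 100, where *ech1* and *ephx2* lie, it was 32.1%. The share with both libraries of a group at 0 was not counted.

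A pair of enzymes with more reads was added after their values were seen. *prdx5*, a peroxiredoxin of peroxisomes and mitochondria, had 735 and 879 normalized counts in the MZ*tulp3* libraries, against 255 and 259 in the control libraries. Its replicates were close and the groups stood apart, with a log2 difference of 1.64 (SE 0.39, adjusted p = 0.379 by limma, with 0.0562 to 0.483 across these alternatives). Catalase, *cat*, the classical marker enzyme of peroxisomes, had 369 and 332 in the MZ*tulp3* libraries, against 567 and 284 in the control libraries, so that the groups overlapped.

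Markers of other tissues were set beside these values, with groups that did not overlap in 20% (MZ*tulp3* higher) and 23.3% (lower) of all genes. Of 7 liver and yolk layer markers 5 passed the filter, all 5 with a log2 difference above 0 and 3 with groups that did not overlap. The summed normalized counts of the 7 were 5268 and 8608 in the MZ*tulp3* libraries, against 1821 and 2150 in the control libraries. All 4 epidermis markers were higher in both MZ*tulp3* libraries, with sums of 310000 and 424000 in the MZ*tulp3* libraries, against 176400 and 128100 in the control libraries. Of 4 neuron markers 2 were lower in both, with sums of 5720 and 4567 in the MZ*tulp3* libraries, against 6591 and 8842 in the control libraries. By limma 0 markers of these 3 lists were past the adjusted threshold. DESeq2 called 2 liver and yolk layer, 3 epidermis and 1 neuron marker, beside 355 of 13633 genes (2.6%). The other marker lists were mixed. Among 5 muscle markers 4 had a log2 difference above 0, and *myhz1.1* was lower in both MZ*tulp3* libraries. No overlap was seen in 0 of 3 erythroid markers, and in 1 higher and 1 lower of 4 pronephros markers. The 2 tested hatching gland markers held 1 that was higher in both. DESeq2 called 1 muscle marker and 0 in the other 3 of these lists. Of the ovary list it called 1. The only gene of that list with reads was *zp2.1*, with 343 in MZ*tulp3* replicate 2 and 0 in the other libraries. The marker lists were also chosen with earlier results of these data known, so their counts are a description. The part of all these markers in the values of the peroxins and enzymes was not tested.

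Of 20 genes for the peroxisomal membrane and for division, 17 were in the table and 12 passed the filter, 4 with a log2 difference above 0 and 8 below. The median was -1.15, or -0.33 when MZ*tulp3* replicate 2 was left out. Limma, edgeR and DESeq2 each called 0. At an unadjusted p under 0.05 by limma 1 of the 12 was higher (*abcd3b*) and 1 lower (*mff*), beside 4.82% and 7.94% of all genes. Both MZ*tulp3* libraries were below both control libraries in 6 of the 12 and above in 3, beside 23.3% and 20% of all genes. *abcd3b* is among the 3 and *atad1a* among the 6. Each passed the filter through 1 group alone, so nothing is read from their part in these counts, nor from the p of *abcd3b*. The whole list was chosen with earlier results of these data known, so its counts are a description. *mff*, chosen after its values were seen, encodes the receptor for the division GTPase. It had 140 and 166 normalized counts in the MZ*tulp3* libraries, against 353 and 588 in the control libraries, a log2 difference of -1.57 (SE 0.54, adjusted p = 0.379 by limma, with 0.205 to 0.553 across these alternatives).

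The fatty acid transporter PMP70 has a pair of genes in zebrafish, *abcd3a* and *abcd3b*. *abcd3b* had 12.6 and 41.3 normalized counts in the MZ*tulp3* libraries, against 0 reads in both control libraries, at least 11.1-fold higher, or 5.17-fold when MZ*tulp3* replicate 2 is dropped (adjusted p = 0.389 by limma, with 0.215 to 0.623 across these alternatives). The more deeply read *abcd3a*, added after its values were seen, had 310 and 322 in the MZ*tulp3* libraries, against 443 and 660.2 in the control libraries. Its log2 difference was -0.77 (SE 0.43, adjusted p = 0.504 by limma). Since *abcd3b* passed the filter through the MZ*tulp3* libraries alone, nothing is read from the directions of the pair. *atad1a*, an ATPase that removes misplaced membrane proteins, had 0 reads in both MZ*tulp3* libraries, against 29.8 and 13.2 normalized counts in the control libraries, at least 6.17-fold lower, or 3.79-fold when control replicate 1 is dropped (adjusted p = 0.393 by limma, with 0.231 to 0.63). *acbd5a*, a tether to the endoplasmic reticulum, had 2.29 and 98.0 in the MZ*tulp3* libraries, against 106 and 201 in the control libraries, and *usp30*, a deubiquitinase, had 51.5 and 0 in the MZ*tulp3* libraries, against 83.75 and 56.1 in the control libraries (adjusted p = 0.549 and 0.611 by limma). For both, 1 MZ*tulp3* library was close to the lower control library and the other was near or at 0. *abcd3b* passed the filter only through the MZ*tulp3* libraries and *atad1a* only through the control libraries, so their groups could not overlap. The fold bounds of these 2 genes cover counting error only, and the difference may be smaller. At means of 10 to 20 normalized counts, where both lie, 96.8% of genes had at least 1 library at 0. The share with both libraries of a group at 0 was not counted.

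Receptors of the PPAR and RXR families and their coactivators, which control peroxisomal genes in mammals, had no single direction. Their median was 0.06 over 8 genes. With scaling to reads outside mitochondrial genes it was -0.12, but over 9 genes, since the filter was applied anew. Over the 8 genes it was -0.36 when MZ*tulp3* replicate 1 was left out, 0.43 when control replicate 1 was and -0.845 when control replicate 2 was. Of 12, 8 passed the filter, 5 with a log2 difference above 0 and 3 below, and 0 had an adjusted p under 0.05 by limma, edgeR or DESeq2 or an unadjusted p under 0.05 by limma. In 1 of the 8, *rxrgb*, the groups did not overlap, beside 23.3% lower and 20% higher of all genes. It was lower, with 50.4 and 129 normalized counts in the MZ*tulp3* libraries, against 140 and 139.3 in the control libraries (adjusted p = 0.77 by limma, with 0.701 to 0.973 across these alternatives).

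**Figure D4:**
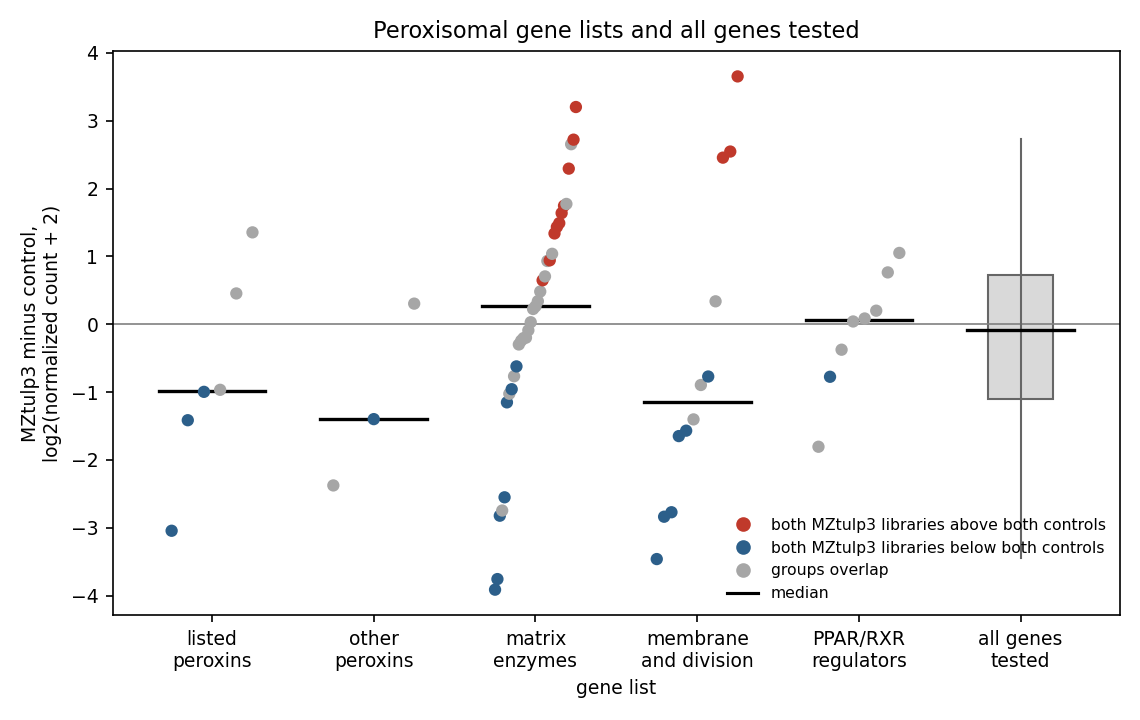
Log2 differences (y axis, MZ*tulp3* minus control on the log2(normalized count + 2) scale) of the tested genes of each list, coloured by whether the libraries of the groups overlap, with the median as a line. At the right stand all 14674 genes tested, as the median, a box from the 25th to the 75th percentile and a line from the 5th to the 95th. The medians are -0.98 for the members, 0.26 for the matrix enzymes, -1.15 for the membrane and division genes and -0.09 for all genes.

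The pattern over the 4 libraries was compared between each member and the other 55 tested genes of the peroxin, enzyme and membrane lists, by the root mean square difference of log2 values centred on each gene's mean. The nearest gene to *pex5* was *abcd3a*, at 0.114. The nearest to *pex14* was *pex26*, at 0.237, with *dhrs4* almost as near, at 0.259. *pex7* was nearest to *acaa1*, at 0.472, and then to *dao.2*, at 0.62. Each of these genes was lowest in control replicate 1. Without that library the log2 difference was -0.325 for *pex7* and 0.276 for *acaa1*. *pex3* was nearest to *acbd5a*, at 0.611. For *pex13* and *pex16* the closest genes, *hacl1* and *isoc1*, were 1.57 and 1.68 away. With 4 libraries and a shared contrast these distances are a description.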

How the data were processed

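Total RNA of 4 whole-embryo samples was sequenced after poly(A) enrichment. The authors trimmed reads with Trim Galore, aligned them with STAR, quantified them with RSEM on GRCz10 and ran DESeq2. The deposited signal values are named counts, but 100% of them were whole multiples of 1 constant per library (within 0.001 reads), the inverse of its size factor (0.84724 to 1.5146), so reads were recovered. The deposited fold changes, p-values and 4 regularized log columns were not used. Lists were matched by symbol, 1 gene through a RefSeq synonym (*mffa* for *mff*).

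The comparison of MZ*tulp3* with control libraries used limma 3.58.1 in R 4.3.3, with a trend in the variance, on log2(normalized count + 2), for genes with at least 10 in at least 2 libraries, and Benjamini-Hochberg adjustment over 14674 genes. DESeq2 1.42.0 and edgeR 4.0.16 on recovered reads, other scalings, pseudocounts and filters, a replicate term and leaving out each library were alternatives. With a library left out, the gene set was kept. The step was tested on simulated data, where recovery of changed genes was required only at the lower of the simulated spreads. Nothing about recovery in these libraries is read from it. Members and lists were chosen with earlier results of these data known. Named were all members and, per list, up to 4 non-overlapping genes with the largest differences, besides any past the threshold by limma. Gene levels were not compared with each other, since transcript lengths and sequences were not used here. Some peroxins are not reported here.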

Additional observations from a re-analysis of the deposited data

How the results depend on the processing

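The number of genes past an adjusted p of 0.05 was 0 by limma and became 355 by DESeq2 and 112 when every library had to reach 10 normalized counts, where 9435 genes were tested. With the replicate number as a block it was 329, although same-numbered libraries did not deviate together (correlation -0.00286) and the labels give no shared origin. In the other 6 genes with peroxin symbols 0 were called under alternatives that keep every library, where only 2 to 4 of them were tested. The block changed no call in the lists. The member median of -0.98 was -1.27 by DESeq2, -1.28 by edgeR, -1.205 with at least 10 in every library (2 members) and between -1.27 and -1.14 with 1 library left out. Of 50 values of single members under alternatives that keep every library, 50 moved by less than that gene's own SD between replicates. That SD is large where a library is at 0, and other filters and the block leave a gene's log2 difference unchanged. The count therefore cannot show that the values are stable. *pex3* moved from -3.04 to -4.07 with a pseudocount of 0.5, and *pex16* from -0.97 to -2.05 by DESeq2. With 1 library left out *pex7*, *pex13* and *pex16* changed direction. Scaling to reads outside mitochondrial genes moved the median of all genes to -0.29, against -0.09, and the member median to -1.11. The median of the matrix enzymes was then 0.12, and leaving out MZ*tulp3* replicate 2 gave 0.04 and leaving out MZ*tulp3* replicate 1 gave 0.74. The median of membrane and division genes was -0.33 without MZ*tulp3* replicate 2. The median of the 3 other peroxins tested was -1.40, and 0.001 without MZ*tulp3* replicate 1. Of the 6 members tested, 3 had at least 1 library at 0, which limits their values at 2 libraries per group.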

Other observations

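The genes beside *pex5*, *pex14* and *pex3*, the members whose groups did not overlap, were looked up after values were seen. Their order is that of the GRCz12tu annotation, which is another build and was used for the order of genes alone. Only the nearest gene on each side is described, and genes further out are left out. Beside *pex5*, *clstn3* had 48.1 and 56.65 normalized counts in the MZ*tulp3* libraries, against 243.6 and 312 in the control libraries, a log2 difference of -2.36, while *cdca3* on the other side overlapped. Beside *pex14*, *casz1* had 87.0 and 162 in the MZ*tulp3* libraries, against 423 and 574 in the control libraries, while *dffa* on the other side had 124 and 218 in the MZ*tulp3* libraries, against 24.1 and 106 in the control libraries. Beside *pex3*, *atf3* had 72.1 and 142 in the MZ*tulp3* libraries, against 0 and 46.9 in the control libraries, and *adat2* overlapped. Groups that do not overlap were found with MZ*tulp3* lower in 23.3% and higher in 20% of all genes tested.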
